A study of Mus musculus with 4 samples.

Results

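The genes described here are 10 members of the AP-1 transcription factor family and of the immediate early response, namely Jun, Junb, Jund, Fos, Fosb, Fosl2, Atf3, Egr1, Myc and Ier2. They were chosen by name, and each has its own row among the 19609 gene rows used. Their expression was followed over 23 clusters of kidney nuclei in 4 conditions. Nuclei came from the kidney cortex of 4 male mice of mixed strain, and each condition is 1 mouse, so no value has a spread between mice, no test was made, and every difference describes these 4 animals. The control mice carried the TRE-hKLF6 transgene alone. The hKLF6OE mice carried CAG-rtTA with TRE-hKLF6, a transactivator under a promoter that is active in nearly all cells, so that doxycycline turns on human KLF6 throughout the animal and not in the tubule alone. The study's methods describe a doxycycline diet for its mice, the controls included, and the sources used here give no age for these animals. A mouse of each genotype received a single injection of aristolochic acid I (AAI), a plant toxin that the proximal tubule takes up and that damages DNA, and was collected the next day, and the other mouse of each genotype received no AAI.

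AP-1 is a dimer of basic leucine zipper proteins, in which a Jun protein pairs with a Fos protein, with an Atf protein or with another Jun protein, and binds short DNA sites. Immediate early genes are switched on within minutes of a growth signal or a stress without new protein synthesis, through kinases of the MAPK family and factors such as SRF and CREB that are already present, and most of their transcripts are short lived. In the kidney they are a classical early response of tubule cells to ischemia and toxins. Jun, Junb and Jund are the Jun proteins, Fos, Fosb and Fosl2 (Fra-2) are Fos proteins, and Atf3 is a stress-induced partner of Jun. Egr1 is a zinc finger transcription factor, Myc is the E-box factor that drives growth and ribosome production, and Ier2 is a small nuclear protein.

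Values are the authors' mean counts per 10000 over the nuclei of 1 cluster in 1 mouse, called expression below. Differences are of log2(value + 1), which understates the change of a gene at low values. The threshold for calling a gene higher or lower was a difference of 0.2, with a larger value of at least 0.5. A gene that reaches the minimum in only 1 of the 2 values compared can be counted in that direction alone. Since most members lay under that minimum in most clusters, a rule for low values was added after the data were seen, with a pseudocount of 0.1, a minimum of 0.1 and a threshold of 0.5. The number of nuclei behind a value is not in the table. Between 15.1% and 63.4% of genes were at exactly 0 in a column. In the mice without AAI the share was 62.6% in control and 40.8% in hKLF6OE for InjuredPT-A, and 51.3% and 55.7% for InjuredPT-B. These columns entered the counts over 23 clusters, the means of the markers below, the plots by cluster and the correlations. The clusters carry numbers and were given names by matching those numbers to the sheet order of the study's marker table. Polr2a, the marker fixed for InjuredPT-A, averaged 12.6 over the 4 mice in that cluster and 3.13 in the next highest. With AAI it was 24.3 in control and 23.3 in hKLF6OE there, and 4.70 and 4.14 in InjuredPT-B. Cxcl1, fixed for InjuredPT-B, averaged 2.30 there and 1.83 in InjuredPT-A, so it did not separate these clusters well. In control with AAI it was higher in InjuredPT-A, at 4.80 against 3.75 in InjuredPT-B, and in hKLF6OE with AAI lower, at 2.52 against 5.35. Havcr1, also fixed for InjuredPT-B, was 0.139 in InjuredPT-A and 0.270 in InjuredPT-B of control with AAI, and 0.133 and 1.26 in hKLF6OE with AAI. Jun, Junb, Jund and Atf3 each overlap another annotated gene on the opposite strand, and the sources used here do not give the strand setting of the counts.

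Promoter windows from RefSeq (build GRCm38.p6) were found for 7 of the 10 members, all but Egr1, Myc and Ier2. The 4 printed here are those of Fos and Junb, which were higher with AAI in nearly every cluster, and of Jun and Atf3, which were high in InjuredPT-A. Each runs 5′ to 3′ on the gene's own strand from 250 bases before the annotated start to 30 bases after it, chr12:85473640-85473919 (plus strand) for Fos, chr4:95052193-95052472 (minus strand) for Jun, chr8:84978719-84978998 (minus strand) for Junb and chr1:191183304-191183583 (minus strand) for Atf3. Capitals mark matches, on either strand, to the AP-1 site TGANTCA, to the CRE-like site TGACNTCA, to the CRE core TGACGT, to TATAAA and to the CArG box that SRF binds. TGACNTCA and TGACGT can overlap.
Fos: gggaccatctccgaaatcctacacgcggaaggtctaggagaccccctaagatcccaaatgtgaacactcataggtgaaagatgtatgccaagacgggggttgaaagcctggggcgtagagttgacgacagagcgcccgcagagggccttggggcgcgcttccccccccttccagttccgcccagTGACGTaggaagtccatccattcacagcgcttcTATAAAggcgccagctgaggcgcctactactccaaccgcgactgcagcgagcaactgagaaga
Jun: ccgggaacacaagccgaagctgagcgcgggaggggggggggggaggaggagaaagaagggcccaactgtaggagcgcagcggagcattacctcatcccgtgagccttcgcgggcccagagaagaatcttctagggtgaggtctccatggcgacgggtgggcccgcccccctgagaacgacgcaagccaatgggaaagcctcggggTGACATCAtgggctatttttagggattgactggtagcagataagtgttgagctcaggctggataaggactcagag
Junb: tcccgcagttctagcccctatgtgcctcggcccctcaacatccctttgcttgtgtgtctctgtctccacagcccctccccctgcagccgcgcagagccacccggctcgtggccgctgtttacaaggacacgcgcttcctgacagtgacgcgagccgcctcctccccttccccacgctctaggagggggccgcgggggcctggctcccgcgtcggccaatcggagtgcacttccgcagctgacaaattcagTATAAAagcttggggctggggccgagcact
Atf3: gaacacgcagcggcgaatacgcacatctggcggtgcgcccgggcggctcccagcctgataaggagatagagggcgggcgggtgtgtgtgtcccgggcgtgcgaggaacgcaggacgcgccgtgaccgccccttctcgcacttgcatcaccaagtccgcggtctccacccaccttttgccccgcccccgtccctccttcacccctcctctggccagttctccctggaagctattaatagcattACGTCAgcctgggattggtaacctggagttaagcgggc
The Fos window held TGACGT at base -66 from the start and TATAAA at -33, and the Jun window held TGACATCA at -45. The Junb window held TATAAA at +1, and the Atf3 window held ACGTCA, the CRE core on the other strand, at -8. Of 32851 windows of this length, 7.26% held TGACGT, 8.52% TGACNTCA, 13.1% TATAAA, 7.46% TGANTCA and 1.56% a CArG box. None of the 7 member windows held TGANTCA or a CArG box, and those of Jund, Fosb and Fosl2 held none of the 5 motifs. Sequence farther than 250 bases before the start was not searched, so a site absent here can lie outside the window. GGGCGG, the GC box bound by Sp and Klf factors, was searched as well and not marked. It stood in 34.7% of all windows and in those of Atf3, with 5 matches, Fosb, with 3, and Fos, Jun and Fosl2, with 1 each. These matches are descriptions of the sequence and not sites shown to be bound.

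Egr1, Fos and Junb were higher with AAI in nearly every cluster, in the proximal tubule and outside it. Egr1 was higher with AAI than without it in 23 of 23 clusters of both genotypes. Genes with a mean over the 92 columns of at least 0.1 numbered 9858, and 0.071% of them, 7 genes, were higher in all 23 clusters of both genotypes. The other 6 were Mdm2, Ccng1, Trp53inp1, Gdf15, Chd9 and 2610035D17Rik, of which the first 4 are known targets of p53 (named after their values were seen). Junb and Fos were each higher in 23 clusters of control and in 22 of hKLF6OE. Without the injured clusters, Egr1 was higher in 21 of 21 clusters of both genotypes, and Junb and Fos in 21 of control and 20 of hKLF6OE. At least 22 clusters of both genotypes were reached by 0.233% of genes.

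**Figure D1:**
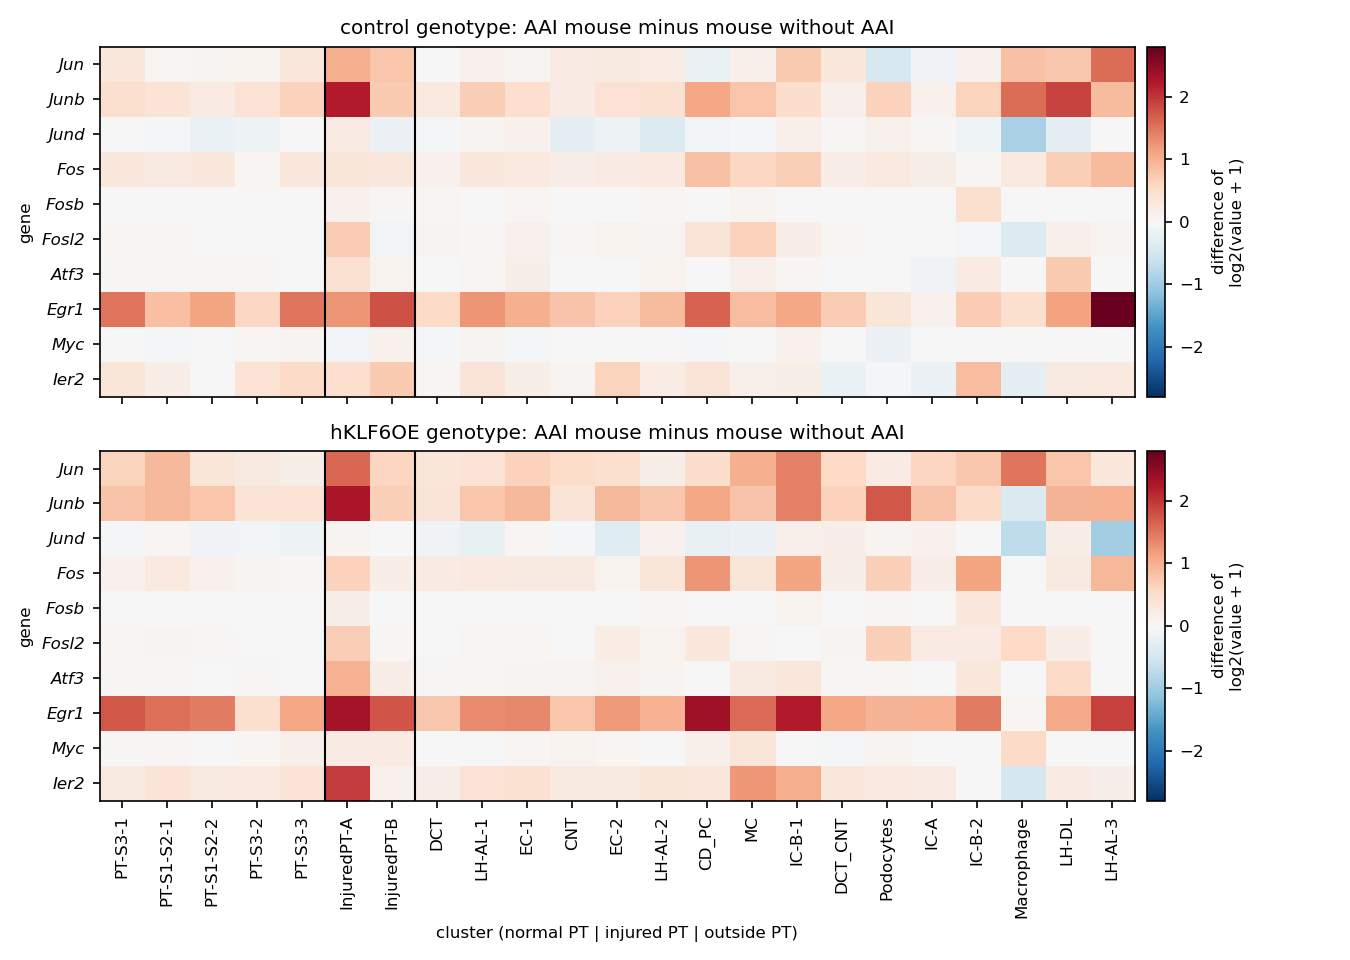
Difference of log2(value + 1) between the AAI mouse and the mouse without AAI for each gene (rows) and cluster (columns), in control (top) and hKLF6OE (bottom), with red for higher and blue for lower with AAI. The Egr1 row is red in all 23 clusters of both panels, the Jund row is pale or blue in most, and the Junb row turns blue only in macrophages of hKLF6OE.

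Averaged over the 5 clusters of normal proximal tubule, Egr1 was 0.420 in control, 2.11 in control with AAI, 0.199 in hKLF6OE and 2.02 in hKLF6OE with AAI. That is a ratio of 5.02 in control and 10.2 in hKLF6OE, with the larger ratio starting from the lower level. Over the 5 clusters the median ratio was 7.01 in control and 8.96 in hKLF6OE, and the smallest were 2.61 and 6.20. PT-S3-2 had the smallest Egr1 values with AAI, 0.642 in control and 0.473 in hKLF6OE. The highest normal cluster was PT-S3-1 in control, at 2.78, and PT-S1-S2-1 in hKLF6OE, at 2.97.

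Outside the proximal tubule, the mean of Egr1 over 16 clusters was 0.465 in control, 2.04 in control with AAI, 0.186 in hKLF6OE and 2.07 in hKLF6OE with AAI. CD_PC, the principal cells of the collecting duct, had the highest value with AAI in both genotypes, 5.99 against 1.21 without AAI in control and 6.03 against 0.364 in hKLF6OE. LH-AL-3, a cluster of the ascending limb with at least 60.5% of genes at 0 in every mouse, went from 0 to 5.76 in control and from 0 to 2.77 in hKLF6OE. The smallest ratios outside the proximal tubule were in IC-A of control, from 0.721 to 0.874, and in macrophages of hKLF6OE, from 0.247 to 0.302. Mesangial cells and IC-B-2 had high Egr1 without AAI in control, 1.28 and 1.30, and were at 0.323 and 0.324 in hKLF6OE.

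Fos was close to 0 without AAI. It was at exactly 0 in 10 of 23 clusters of control and in 18 of hKLF6OE, and with AAI it was at 0 in none of control and in 1 of hKLF6OE, the macrophages. In normal proximal tubule it was 0.0203 in control, 0.205 in control with AAI, 0.00735 in hKLF6OE and 0.101 in hKLF6OE with AAI. The highest values with AAI lay outside the proximal tubule. CD_PC went from 0 to 0.774 in control and from 0 to 1.35 in hKLF6OE, and IC-B-1, a type B intercalated cluster, from 0.0564 to 0.682 and from 0 to 1.14. IC-B-2 was the exception among control clusters with 0.235 without AAI and 0.255 with it, while in hKLF6OE it went from 0 to 1.16.

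Junb, which can act against Jun as well as with it, was 0.278 in normal proximal tubule of control, 0.717 with AAI, 0.122 in hKLF6OE and 0.791 with AAI, ratios of 2.58 and 6.47. All 5 normal clusters of both genotypes were higher with AAI for Junb, Egr1, Fos, Jun and Ier2, a pattern that 5.01% of genes had. Outside the proximal tubule the mean of Junb was 0.247, 1.11, 0.148 and 1.06 in the same order of mice. Podocytes held 0.454 and 1.26 in control and 0.150 and 2.86 in hKLF6OE, and LH-DL, the descending limb, 0 and 2.71 in control and 0.317 and 1.56 in hKLF6OE. Macrophages went opposite ways, from 0.567 to 3.63 in control and from 0.570 to 0.195 in hKLF6OE.

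**Figure D2:**
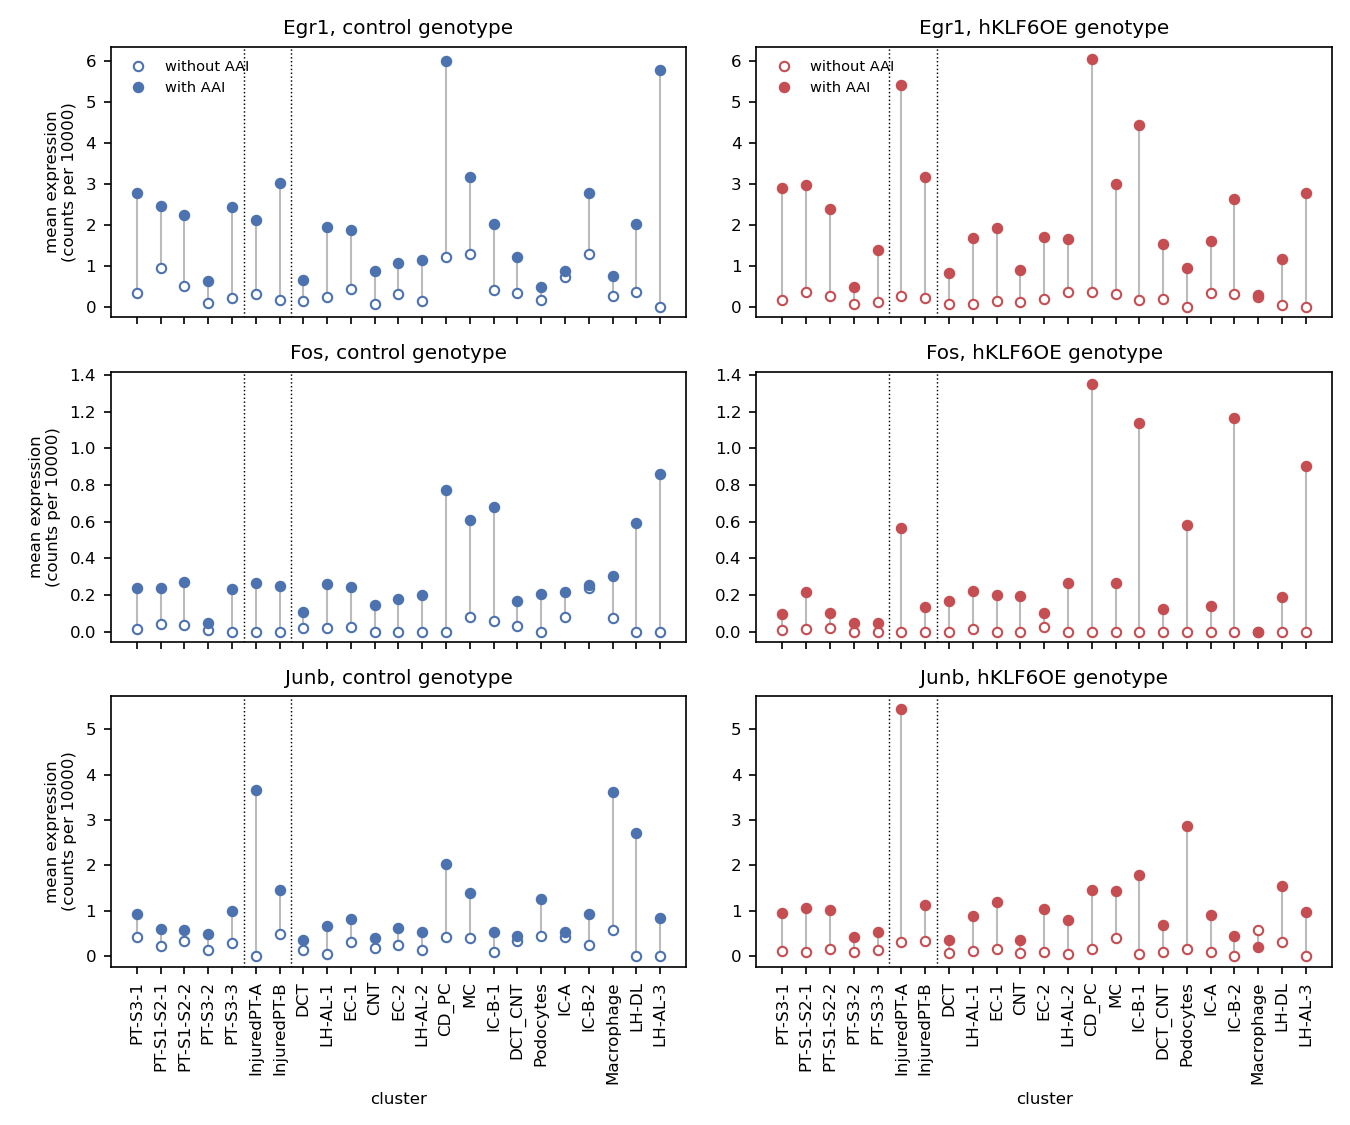
Expression (counts per 10000) of Egr1, Fos and Junb in each of the 23 clusters without AAI (open circles) and with AAI (filled circles), in control (left) and hKLF6OE (right), with dotted lines around the injured clusters. The filled Egr1 circle stands above the open one in every cluster and reaches 5.99 and 6.03 in CD_PC, and for Junb the order turns over only in macrophages of hKLF6OE.

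Jun and Ier2 were higher with AAI in fewer control clusters. Jun was higher with AAI in 19 clusters of control and in 23 of hKLF6OE, and Ier2 in 19 and 22. In normal proximal tubule, Jun was 0.606 in control, 0.794 with AAI, 0.349 in hKLF6OE and 0.903 with AAI. Its ratio was 1.31 in control, under the threshold at a difference of 0.16, and 2.59 in hKLF6OE. The control clusters in which Jun was lower with AAI were DCT, CD_PC, podocytes and IC-A, and the largest drop was in podocytes, from 0.837 to 0.354. Ier2 was 0.370 in control, 0.681 with AAI, 0.126 in hKLF6OE and 0.398 with AAI, ratios of 1.84 and 3.16.

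Fosl2, Atf3 and Fosb stayed low in normal proximal tubule, with no value over 0.0659 in any of the 4 means. Fosb was at 0 in all 46 columns of the mice without AAI, and with AAI it was above 0 in 10 clusters of control and 8 of hKLF6OE. Its highest values were 0.357 and 0.219, both in IC-B-2. Atf3 was above 0 in 5 clusters of control and 3 of hKLF6OE without AAI, and in 17 and 19 with it. In control with AAI, LH-DL held the most Atf3 of all clusters, 0.672, above InjuredPT-A at 0.352. In hKLF6OE with AAI LH-DL came after InjuredPT-A, at 0.441 against 0.974. LH-DL was at 0 in both genotypes without AAI. Fosl2 was higher with AAI in 18 and 20 clusters. Its largest values outside the proximal tubule were 0.565 in mesangial cells of control and 0.758 in podocytes of hKLF6OE, against 0 and 0.101 without AAI.

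Jund and Myc did not share this pattern. Jund was higher with AAI in 9 clusters of control and 10 of hKLF6OE. In normal proximal tubule it was 0.309 in control, 0.254 with AAI, 0.261 in hKLF6OE and 0.208 with AAI, with the AAI mouse the lower of each genotype. Myc was higher in 6 clusters of control and 15 of hKLF6OE. In normal proximal tubule it was 0.0500, 0.0614, 0.0182 and 0.0538 in the same order, and outside it the mean was at most 0.0730.

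When the threshold was applied to the normal proximal tubule mean, 3 of 4 members that passed the minimum were higher with AAI in control, where 11.7% of 4052 genes were. These were Junb, Egr1 and Ier2, which lay under the minimum without AAI and passed through the AAI mouse alone. Jun, above the minimum in both control mice, was not counted. In hKLF6OE they were 3 of 3, Jun, Junb and Egr1, where 19.5% of 4133 genes were. All 3 passed through the AAI mouse alone, so none could be counted as lower. The rule for low values added Fos in control, for 4 of 6 members against 4.83% of genes, and Fos and Ier2 in hKLF6OE, for 5 of 6 against 6.93%. Of the members counted by this rule, Fos alone lay under its minimum of 0.1 without AAI, in both genotypes. In the mean of the 16 clusters outside the proximal tubule, 3 of 3 members were higher in both genotypes, Jun, Junb and Egr1, against 12% of genes in control and 20% in hKLF6OE. Without AAI they were 0.363, 0.247 and 0.465 in control and 0.190, 0.148 and 0.186 in hKLF6OE. All passed through the AAI mouse alone, so they could not be counted as lower or have a median under 0. Their median differences were 0.76 and 0.84, where those of all genes tested were 0.02 and 0.06. With low values included, 5 of 7 members in control and 6 of 7 in hKLF6OE were higher outside the proximal tubule, against 6.01% and 7.02%. Fos in both genotypes and Fosl2 in hKLF6OE passed this rule through the AAI mouse alone.

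Some proximal tubule RNA was counted in nuclei of every other cluster. Slc5a12, a transporter of the proximal tubule, had a median over the clusters outside it of 3.49 in control and 4.60 with AAI, and of 3.42 in hKLF6OE and 3.43 with AAI. The share of mitochondrially encoded RNA was lower with AAI, with medians over clusters of 2.22% and 1.29% in control and 2.89% and 1.24% in hKLF6OE. The part of either in the differences above was not tested.

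In InjuredPT-A, the injured cluster marked by Polr2a, members of the Jun, Fos and Atf groups stood well above normal proximal tubule of the same AAI-treated mouse. Junb was 3.67 in control with AAI against 0.717 in the mean of the 5 normal clusters, and 5.46 in hKLF6OE with AAI against 0.791, ratios of 5.12 and 6.91. It was the highest of the 23 clusters in both mice. Jun was 1.55 against 0.794 and 3.65 against 0.903. Fosl2 was 0.645 against 0.0659 and 0.600 against 0.0654, near 10 times the normal level in both mice at 9.80 and 9.17. Ier2 was 1.07 against 0.681 and 3.48 against 0.398, ratios of 1.57 and 8.73.

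Jun, Junb, Fosl2 and Ier2 were counted as higher in both mice, 4 of the 5 members that passed the minimum, where 43.3% of 5008 genes were higher. Egr1 was the fifth. It was 2.12 against 2.11 in control and 5.40 against 2.02 in hKLF6OE, so it was level with normal proximal tubule in control and 2.67 times as high in hKLF6OE. The medians of the 5 members were 0.51 and 1.29, and those of all genes tested were 0.19 and 0.15. Fosl2 lay under the minimum in normal proximal tubule of both mice and Ier2 in that of hKLF6OE, so they could not be counted as lower. With low values included, 7 of 9 members were higher, against 37% of 9653 genes. They were the 4 above with Jund, Atf3 and Myc. Fosl2, Atf3 and Myc passed the rule for low values through InjuredPT-A alone.

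Atf3 had ratios of 16.7 and 52.0 between InjuredPT-A and normal proximal tubule, at 0.352 against 0.0210 in control and 0.974 against 0.0187 in hKLF6OE. Fosb was 0.0891 and 0.119 in InjuredPT-A, where the 5 normal clusters ran from 0 to 0.0133. Jund was 0.493 against 0.254 and 0.903 against 0.208, above the highest normal cluster of each mouse. Myc was 0.248 against 0.0614 and 0.346 against 0.0538. Fos was within the range of the normal clusters in control, at 0.264 with a highest normal cluster of 0.272, and above it in hKLF6OE, at 0.562 with a highest of 0.215.

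**Figure D3:**
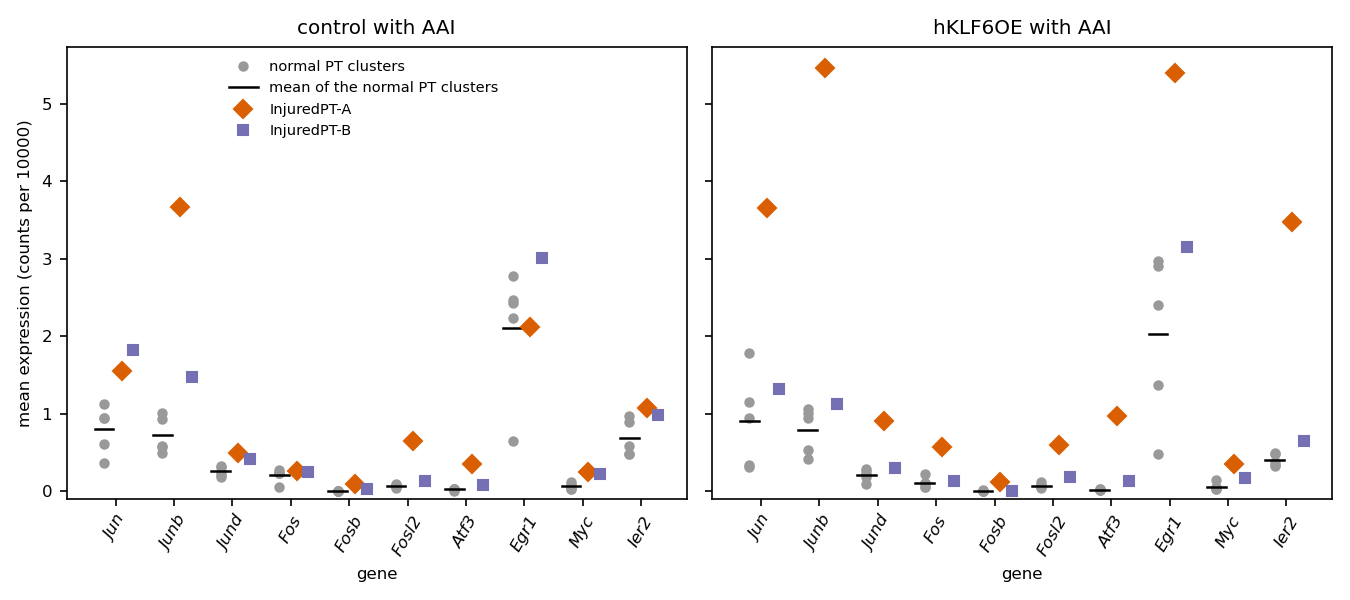
Expression (counts per 10000) of the 10 genes in the AAI-treated control mouse (left) and hKLF6OE mouse (right), with a grey point for each of the 5 normal proximal tubule clusters, a line for their mean, a diamond for InjuredPT-A and a square for InjuredPT-B. The Junb diamonds stand at 3.67 and 5.46 above all grey points, and the Egr1 diamond lies among the grey points in control and at 5.40 above them in hKLF6OE.

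In InjuredPT-B, the other injured cluster, 4 of these genes were higher than in normal proximal tubule. Jun was 1.82 in control with AAI and 1.31 in hKLF6OE with AAI, Junb was 1.47 and 1.12, Egr1 3.01 and 3.16, and Ier2 0.981 and 0.650. Of these values only Jun of hKLF6OE lay under the highest normal cluster of its mouse, at 1.79. Ier2 of control and Junb of hKLF6OE were just above theirs, at 0.973 and 1.06. Jun, Junb, Egr1 and Ier2 were counted as higher in both mice, 4 of the 4 that passed, where 23.4% of 4148 genes were. All differences but those of Jun and Junb in control lay under 0.5, and none of the 4 was counted by the rule for low values, under which Myc alone was, 1 of 8 members against 11.9% of genes. Myc was 0.215 and 0.173 and passed that rule through InjuredPT-B alone, as Ier2 of hKLF6OE passed the main minimum. Atf3 was 0.0747 and 0.134, Fosl2 0.130 and 0.177, and Fosb 0.0269 and 0. Egr1 was higher in InjuredPT-B than in InjuredPT-A of control, and lower than in InjuredPT-A of hKLF6OE.

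Markers of other cells were measured in the injured clusters too. Over 13 markers of macrophages, T cells, B cells, neutrophils and fibroblasts, the summed level was 0.796 and 0.903 in InjuredPT-A, 0.385 and 0.284 in InjuredPT-B and 0.457 and 0.440 in normal proximal tubule, in control and hKLF6OE with AAI. In the macrophage cluster it was 28.0 and 30.1. The B cell marker Cd79a made up 0.343 and 0.407 of the sums in InjuredPT-A. Neutrophil markers summed to 0.00882 and 0.0177 there and to 0 in InjuredPT-B. Cd3e of T cells and S100a9 of neutrophils were at 0 in both injured clusters of both mice. The part of these cells in the differences was not tested.

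The genotypes were compared first without AAI. Jun, Junb, Jund, Egr1 and Ier2 were lower in hKLF6OE than in control in 5 of 5 normal proximal tubule clusters, as 15.5% of genes were. In the mean of these clusters, Ier2 was 0.370 in control and 0.126 in hKLF6OE, 2.93 times as high in control. The ratio of control to hKLF6OE was 2.27 for Junb, 2.11 for Egr1, 1.74 for Jun and 1.19 for Jund. Fos was lower in 4 of the 5 clusters and at 0 in both mice in the fifth. Fosl2 was 0.0408 and 0.0406.

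Jun was the only member that passed the minimum in this comparison, and it was lower in hKLF6OE, where 9.33% of 4041 genes were. It passed through control alone, so it could not be counted as higher in hKLF6OE. With low values included, Jun, Junb, Egr1 and Ier2 were lower, 4 of 5 members against 2.08% of 8997 genes. Over all 23 clusters, Jun and Egr1 were lower in 19, and Junb and Ier2 in 17. At least 19 clusters were reached by 4.3% of genes and at least 17 by 11.9%. Outside the proximal tubule no member passed the minimum of 0.5, where 10.7% of 4637 genes were lower, and by the rule for low values Jun and Egr1 were lower, 2 of 5 members against 5.06%. The values behind them were 0.363 and 0.190 for Jun and 0.465 and 0.186 for Egr1. EC-2, an endothelial cluster, went the other way for Jun, with 0.245 in control and 0.556 in hKLF6OE.

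With AAI, the values of the genotypes in normal proximal tubule were as follows. Junb was 0.717 in control and 0.791 in hKLF6OE, Egr1 2.11 and 2.02, and Jun 0.794 and 0.903. In the mean of the PT-S1-S2 clusters Junb was 0.580 in control and 1.03 in hKLF6OE, and Jun 1.03 and 1.47. In the mean of the PT-S3 clusters the order turned, with Junb at 0.809 and 0.628 and Jun at 0.634 and 0.528. Single clusters differed. Jun was 0.941 and 1.79 in PT-S1-S2-1 but 1.13 and 1.15 in PT-S1-S2-2. PT-S3-1 was near level, with Junb at 0.928 and 0.945 and Jun at 0.939 and 0.938. Ier2 stayed lower in hKLF6OE, at 0.681 and 0.398 and in 5 of 5 clusters, and so did Fos, at 0.205 and 0.101 and in 5 of 5, a pattern of 10.8% of genes. Ier2 was counted, 1 of 4 members against 7.74% of 3942 genes, and by the rule for low values Ier2 and Fos were, 2 of 6 against 2.59%. Ier2 passed the main minimum through control alone. Over all 23 clusters Fos was lower in 14, Fosl2 in 13 and Ier2 in 12, and the other members in 10 or fewer. Outside the proximal tubule 0 of 3 members were lower by the main threshold, where 6.96% of 4496 genes were, and 0 of 7 by the rule for low values, against 5.68%.

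**Figure D4:**
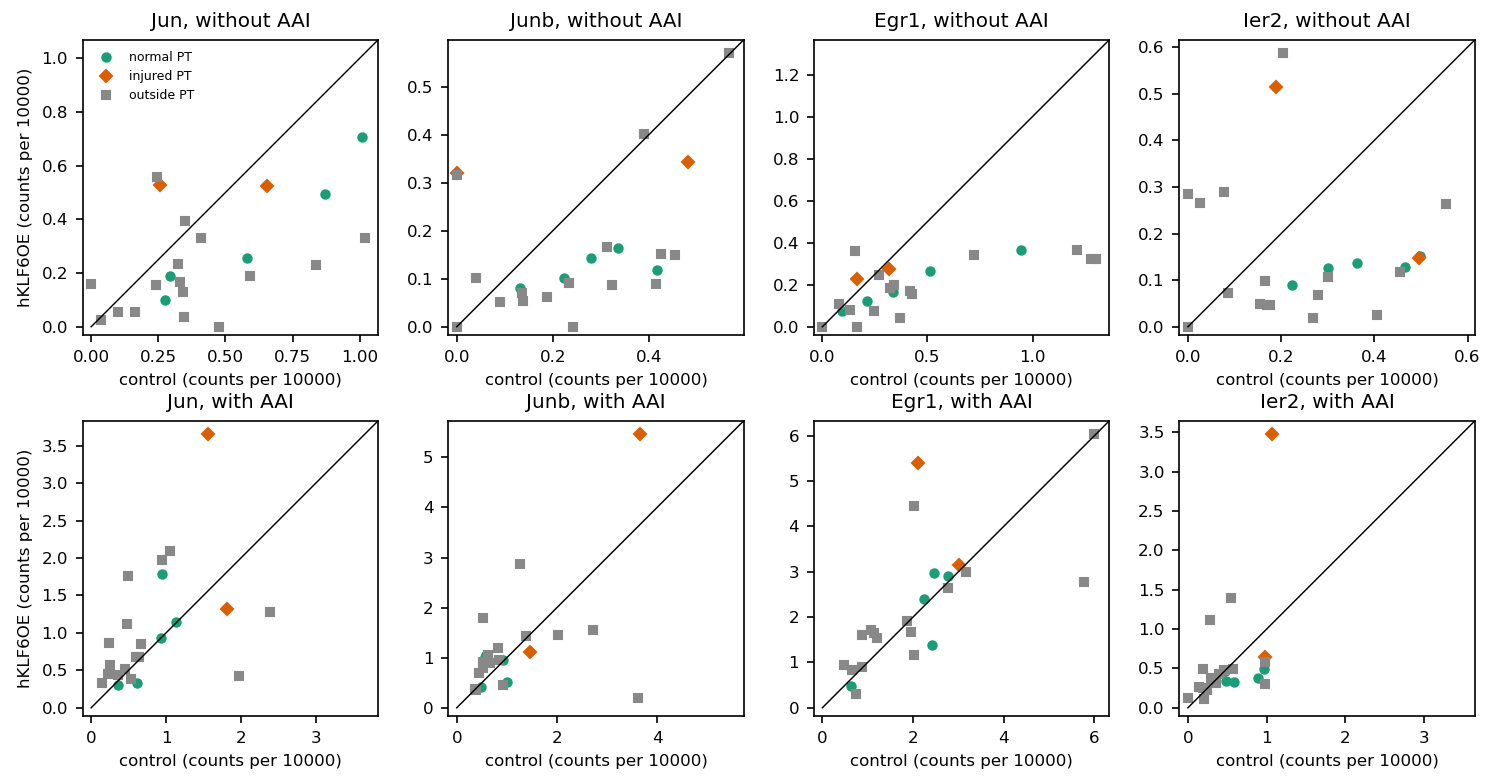
Expression (counts per 10000) of Jun, Junb, Egr1 and Ier2 in hKLF6OE (vertical) against control (horizontal), with a point for each cluster (circles normal proximal tubule, diamonds the injured clusters, squares the others) and a line of equality, without AAI (top) and with AAI (bottom). Without AAI all 5 normal proximal tubule points lie under the line for each gene, and with AAI the upper diamond, InjuredPT-A, lies above it for each gene.

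In InjuredPT-A of the AAI-treated mice, most members were higher in hKLF6OE than in control. Ier2 was 1.07 in control and 3.48 in hKLF6OE, Egr1 2.12 and 5.40, Atf3 0.352 and 0.974, and Jun 1.55 and 3.65, which makes ratios of 3.25, 2.55, 2.77 and 2.35. Fos was 0.264 and 0.562, Jund 0.493 and 0.903, and Junb 3.67 and 5.46. This comparison was added after the data were seen. Of 8 members that passed the minimum, 7 were higher in hKLF6OE and none lower, where 13.1% of 5253 genes were higher and 22.3% lower. Jund, Fos and Atf3 passed through hKLF6OE alone, so they could not be counted as lower. Fosl2 was the exception at 0.645 and 0.600. With low values included, all 10 members passed and the same 7 were higher, against 11.9% of 10298 genes. In InjuredPT-B the direction was not the same, with 3 of 4 members, Jun, Junb and Ier2, lower in hKLF6OE, where 18.5% of 4744 genes were. With low values included they were Fos and Ier2, 2 of 9 members against 15.4%. The shares of genes at 0 in InjuredPT-A were 22.5% in control with AAI and 22.2% in hKLF6OE with AAI.

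The genes around AP-1 were described with lists chosen for this work. Of 13 other AP-1 and partner genes, 7 passed the minimum in InjuredPT-A against normal proximal tubule and 5 were higher in both AAI-treated mice, where 43.3% of all genes tested were. They were Mafg, Mafk and Maff, small Maf proteins, Atf4, the factor of the integrated stress response, and Fosl1 (Fra-1). Mafg had a difference of 2.22 in control and of 1.90 in hKLF6OE, where it was 15.6 against 3.44. Mafk was 3.48 against 0.174 and 3.24 against 0.143. Atf4 was 3.72 against 0.630 and 7.62 against 0.593. Fosl1, the Fos protein that was not among the 10 members, was 0.654 against 0.0200 and 0.998 against 0.0257. Fosl1, Maff and Mafk lay under the minimum in normal proximal tubule of both mice, so they could not be counted as lower. With AAI in normal proximal tubule, 0 of 4 were higher and 1 lower in control (Maf), where 11.7% of all genes were higher and 456 of 4052 lower. In hKLF6OE 1 of 4 was higher (Mafg), where 19.5% of all genes were.

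Of 22 other immediate early genes, 20 have a row, 6 passed the minimum in InjuredPT-A and 6 were higher in both mice, where 43.3% of all genes were. Klf6, the mouse gene of the factor that the transgene overexpresses in its human form, was 7.46 against 0.406 and 6.68 against 0.327. Zfp36, which binds and destabilizes short-lived mRNAs, was 3.20 against 0.856 and 7.70 against 1.14. Btg2, an antiproliferative p53 target, was 3.84 against 1.10 and 4.44 against 0.748. Ier5 was 1.70 against 0.167 and 1.82 against 0.161, and Ier3 was 0.666 against 0.182 and 1.30 against 0.170. Klf6, Ier5 and Ier3 lay under the minimum in normal proximal tubule of both mice, so they could not be counted as lower. In InjuredPT-B 3 of 4 were higher, Btg2, Klf6 and Cyr61, where 23.4% of all genes were. Klf6 passed there through InjuredPT-B alone. In normal proximal tubule with AAI, Btg2, Zfp36 and Cyr61 were higher in both genotypes and Dusp1, a phosphatase that turns MAPK off, was lower, 3 and 1 of 4 in each. Of all genes, 11.7% were higher and 456 of 4052 lower in control, and 19.5% were higher and 636 of 4133 lower in hKLF6OE. In both genotypes Btg2, Zfp36 and Cyr61 passed the minimum through the AAI mouse alone, so they could not be counted as lower. Dusp1 passed through the mouse without AAI alone in both, so it could not be counted as higher. Btg2 went from 0.0553 to 1.10 in control and from 0.0415 to 0.748 in hKLF6OE, and Dusp1 from 0.814 to 0.367 and from 0.627 to 0.404 (Dusp1, Cyr61 and Maf were named after their values were seen).

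The next list holds genes that act upstream of the members. Of 14 kinases and serum response factors, 13 have a row, 9 passed in InjuredPT-A, 3 were higher and 1 lower. Of all genes tested, 43.3% were higher, a larger share than in this list, and 1350 of 5008 were lower. Elk4, an SRF partner, was 1.70 against 0.602 and 1.57 against 0.592, and Creb1 was 2.34 against 0.988 and 2.16 against 1.01. Map2k4, which activates the Jun kinases, was 2.48 against 1.63 and 2.84 against 1.86. Mapk14 (p38) was the lower gene, at 1.44 against 3.87 and 1.17 against 3.58. Of 10 Myc partners, Mxd4 and Mnt, which repress at Myc sites, were higher, 2 of 4 that passed, which is near the 43.3% of all genes. Mnt lay under the minimum in normal proximal tubule of both mice and Mxd4 in that of hKLF6OE, so they could not be counted as lower.

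Heat shock and ubiquitin genes are another group that cells induce under stress. Of 10, 7 passed in InjuredPT-A and 6 were higher, against 43.3% of all genes. Among them were Hsp90aa1 at 1.99 against 0.474 in control and 3.35 against 0.461 in hKLF6OE, and Hsph1 at 2.07 against 0.652 and 1.78 against 0.663. Hsp90aa1 lay under the minimum in normal proximal tubule of both mice and Ubb in that of hKLF6OE, so they could not be counted as lower. In InjuredPT-B 0 of 6 were higher and 0 lower, where 23.4% of all genes were higher and 543 of 4148 lower. With AAI in normal proximal tubule none was higher, where 11.7% of all genes were in control and 19.5% in hKLF6OE. In control 2 of 6 were lower, where 456 of 4052 genes were, and in hKLF6OE 5 of 6, where 636 of 4133 were. Ubb went from 1.00 to 0.559 in control and from 2.06 to 0.297 in hKLF6OE, where it passed through the mouse without AAI alone and could not be counted as higher.

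**Figure D5:**
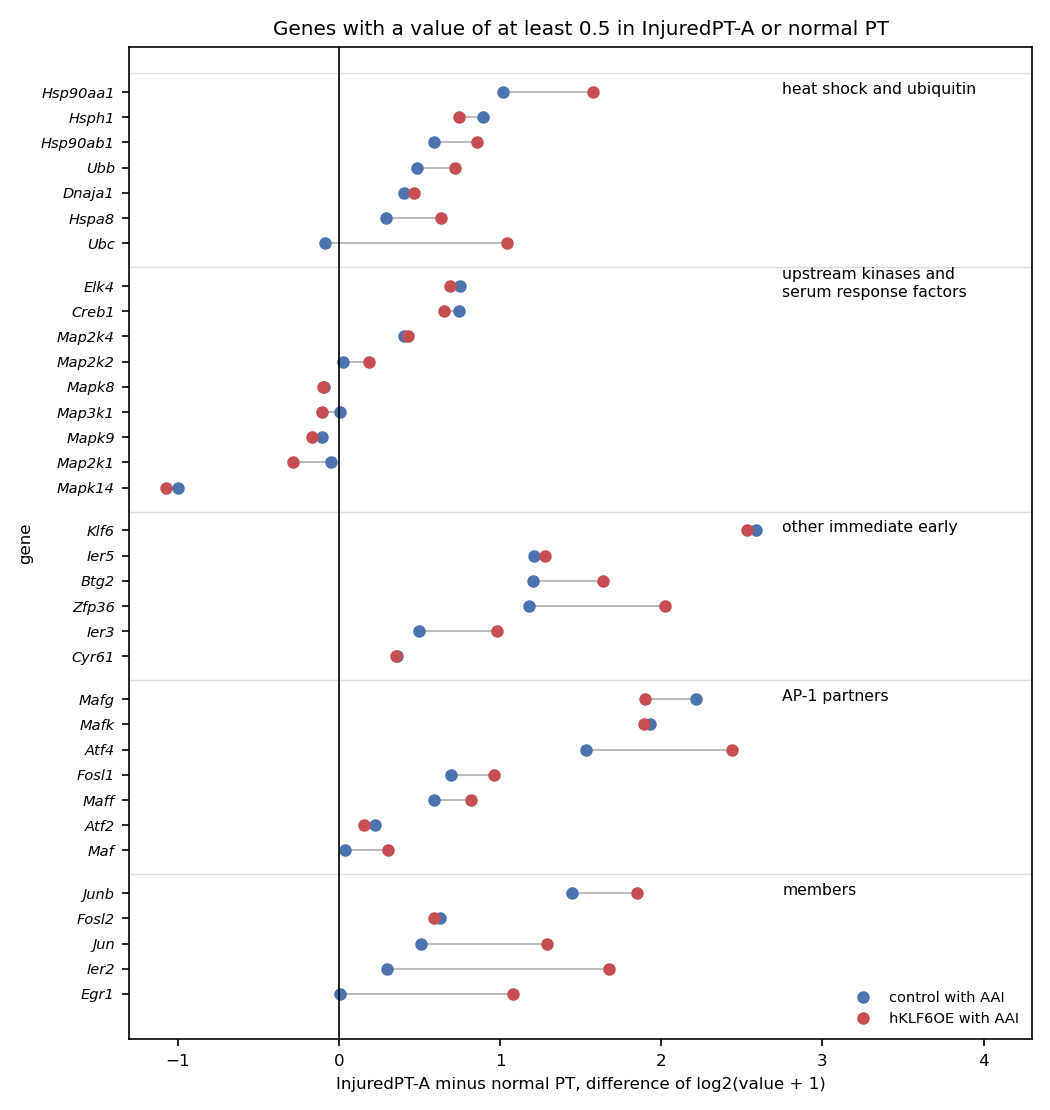
InjuredPT-A minus normal proximal tubule, as the difference of log2(value + 1), for members and for genes of 4 other lists that passed the minimum in both AAI-treated mice, with blue points for control and red points for hKLF6OE. Klf6 lies farthest to the right, at 2.59 and 2.53, Mapk14 is at the far left, and Egr1 is at 0.00 in control and 1.08 in hKLF6OE.

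The members were also compared by their pattern over the 92 columns, which share mice, so the correlations are given as a description without a p. Among 8992 genes with a value of at least 0.5 in at least 3 columns, Egr1 and Fos were each other's closest gene, with a Pearson's r of 0.80. Btg2 was the second closest gene of both, at 0.73 for Egr1 and 0.68 for Fos, and the closest of Junb at 0.78, followed by Cdkn1a at 0.76. Jun and Ier2 were both closest to Zfp36, at 0.69 and 0.73, followed by Cdkn1a (0.68) for Jun and Vmp1 (0.70) for Ier2. Fosl2 was closest to mouse Klf6, at 0.80, and then to Efnb1, at 0.64. Atf3, which was at 0 in 48 of the 92 columns, was closest to Epha2, at 0.80, and then to Polr2a, at 0.76. Jund was closest to Gpx4 and Psma7, both at 0.68, and had an r of -0.09 with Fos and -0.05 with Egr1. Myc was closest to Icmt (0.72) and Edem1 (0.71). Fosb was closest to Hs3st5 (0.80) and Tdrp (0.66), and it was at 0 in 74 of the 92 columns, so that its r rests on few values.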

How the data were processed

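Nuclei from the kidney cortex of 4 mice, 1 for each condition, were profiled by single-nucleus RNA-seq. The authors aligned the reads with Cell Ranger 3.1.0, counted introns with exons by a pre-mRNA reference, and clustered the nuclei with Seurat 4.3. The deposited signal values are means over the nuclei of a cluster in a mouse, and each of the 92 columns summed to 10000. The averaging function, the number of nuclei and the depth are not given with the table, so counting intervals could not be computed. The methods name no doublet removal for the RNA data. Of 19632 gene rows, 23 with date-like names were left out.

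From these values, differences of log2(value + 1) were computed for all genes (Python 3.11.15, numpy 2.4.6, pandas 2.3.3). A difference counted from 0.2 where the larger value was at least 0.5, and for the injured clusters it had to hold in both AAI-treated mice. No test was made, because each condition is 1 mouse. All 10 members are named, other genes are named as up to 5 per list and direction with the largest difference in InjuredPT-A that held in both AAI-treated mice, and the closest 2 genes by pattern are given. The members and lists were chosen with earlier results of these data known. For the list of kinases and serum response factors, 1 gene is not reported here and was left out of its counts. Alternatives changed the pseudocount, the minimum, the threshold, the centring and the clusters used. The script was tested on simulated data.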

Additional observations from a re-analysis of the deposited data

Results flagged for a closer look

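Junb in macrophages moved in opposite directions with AAI in the 2 genotypes. It went from 0.567 to 3.63 in control, a difference of 1.56 on the log2(value + 1) scale, and from 0.570 to 0.195 in hKLF6OE, a difference of -0.39. Of the 59 pairs of a member and a cluster that passed the minimum in both genotypes, it was the only 1 in which the genotypes moved opposite ways past the threshold. Pairs under the minimum in a genotype were left out. Among them, Jun in podocytes had differences of -0.44 in control and 0.23 in hKLF6OE, and Fosl2 in macrophages -0.38 and 0.56. Each value comes from 1 mouse, and the difference between the genotypes was not tested. The share of genes at 0 in the macrophage cluster was 49.7% in control and 63.4% with AAI, and 38.3% in hKLF6OE and 56.9% with AAI.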

How the results depend on the processing

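Counts of members moved with the minimum and the threshold. Directions of single genes between genotypes with AAI turned with the clusters used, all under the threshold in the mean of 5 clusters. For hKLF6OE minus control, Jun was 0.09 over the 5 normal clusters, 0.28 in PT-S1-S2 clusters and -0.10 in PT-S3 clusters. In the same order Junb was 0.06, 0.36 and -0.15, and Egr1 -0.04, 0.14 and -0.19. The differences of Jun and Junb in the mean of the PT-S1-S2 clusters lay past the threshold of 0.2, though Jun was near level in PT-S1-S2-2, at 1.13 and 1.15. Members higher in InjuredPT-A were 4, and 7 with no filter or the rule for low values, 8 in the hKLF6OE AAI mouse alone, and 1 with a minimum of 2 or a threshold of 1. Members higher in InjuredPT-B were 4, and 1 with a minimum of 2, with centring on the median or with the rule for low values, and 0 with a threshold of 0.5 or 1. Members higher with AAI in normal proximal tubule of control were 3, and 1 with a minimum of 2 or a threshold of 0.5 or 1. In hKLF6OE they were 3, and 1 with a minimum of 2 or a threshold of 1, and 5 with the rule for low values. Members lower in hKLF6OE without AAI were 1, and 0 with a minimum of 2, with a threshold of 0.5 or 1, or in PT-S3 clusters, 2 in PT-S1-S2 clusters, 3 with no filter and 4 with the rule for low values. With AAI they were 1, and 0 with a minimum of 2, with a threshold of 0.5 or 1, or in PT-S1-S2 clusters, and 2 with the rule for low values. Outside the proximal tubule, the median difference of members was 0.76 in control, 1.80 with a pseudocount of 0.1 and 0.15 with no filter. In hKLF6OE it was 0.84, 2.23 and 0.26. The low-value rule, the comparison of genotypes within the injured clusters and the counts over all normal proximal tubule clusters were chosen after seeing the data. No paired analysis was possible because each condition is 1 mouse and no result comes from a test. Depth per cluster is unknown, so a value of 0 sets no limit on expression.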
